A study of Mus musculus with 2 samples.

Results

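The cells described here are 88 leukocytes of mouse adipose tissue that fell in a cluster with an IL-17-type program but had no transcript of the delta chain constant gene Trdc. They were chosen by 2 criteria, a place in cluster 11 of the authors' deposited cluster table and 0 Trdc UMIs (unique molecular identifiers, the tags by which captured transcripts are counted). The alpha chain transcript Trac was found in 62 of them, and 18 of the 88 had next to no CD3 transcripts and held most of the Kit, Cd4 and Il22 transcripts, which are known from group 3 innate lymphoid cells. The 88 cells made up 14 of 4458 clustered cells from mice on chow and 74 of 5559 clustered cells from mice on a ketogenic diet, out of 10017 clustered cells in all. The other 141 of the 229 cells of cluster 11, 45 from chow and 96 from the ketogenic diet, had at least 1 Trdc UMI and are called the Trdc-positive cells. Which genes entered the authors' clustering is not given in the sources used here, and any of them may have, while the split used Trdc, so levels that set the cells apart from other clusters are given as a description and not as findings.

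Both libraries came from adult C57BL/6 mice labelled wt, and both hold adipose cells that the labels describe as tissue-resident and CD45+, the surface protein of leukocytes. An intravenous label, which marks cells inside blood vessels, had served to set them apart. One library came from mice on control chow and one from mice on a ketogenic diet, a low-carbohydrate, high-fat diet that raises ketone bodies, fed for 1 week. The number of mice behind each library and their sex were not given in the sources used here. With 1 library per diet no difference has a replicate check, so no test between diets was made, and square brackets give 95% intervals that cover counting error only.

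T cells recognise antigen through a receptor built of an alpha and a beta chain or of a gamma and a delta chain, and the CD3 complex carries either receptor to the surface. Gamma delta T cells, mucosal-associated invariant T (MAIT) cells, invariant natural killer T (iNKT) cells and helper T cells can all take up a shared program and secrete IL-17 and IL-22. Group 3 innate lymphoid cells use the same program with no rearranged antigen receptor and no surface CD3. In adipose tissue, IL-17-producing gamma delta T cells are known for roles in heat production and in the upkeep of regulatory T cells.

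The 88 cells held 372307 UMIs, 50770 from chow and 321537 from the ketogenic diet. Their depth ran from 2017 to 10222 UMIs per cell, with a median of 3498.5 under chow and 4011 under the ketogenic diet, against 3550 and 3467 over all clustered cells of the 2 libraries. Mitochondrial transcripts took 1.42% to 4.66% of a cell's UMIs. Of the cell barcodes, 41 occurred in both libraries, none of them in a Trdc-negative cell and 1 in a Trdc-positive cell. No doublet caller was run, so cells captured in pairs may be among those counted. Levels are given as CPM (counts of a gene scaled to the usual common total of UMIs, over the cells summed).

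At the threshold itself, the 88 cells with 0 Trdc UMIs stood beside 8 cells with 1 UMI, 28 with 2 to 4 and 105 with 5 or more. Cd163l1, a scavenger receptor known from IL-17-type gamma delta T cells, had 0 UMIs in the 88 cells, 11 UMIs in 3 of the 8 cells with 1 Trdc UMI, 67 UMIs in 19 of the 28 cells and 439 UMIs in 89 of the 105 cells. Trac, the constant segment of the alpha chain, had 230 UMIs in 62 of the 88 cells, 4 UMIs in 4 of the 8, 6 UMIs in 5 of the 28 and 23 UMIs in 19 of the 105. Trdc lies at chr14:54142851-54148868 and Trac at chr14:54220521-54224206, both on the plus strand of GRCm38 and both in the locus that holds the alpha and delta segments together.

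**Figure D1:**
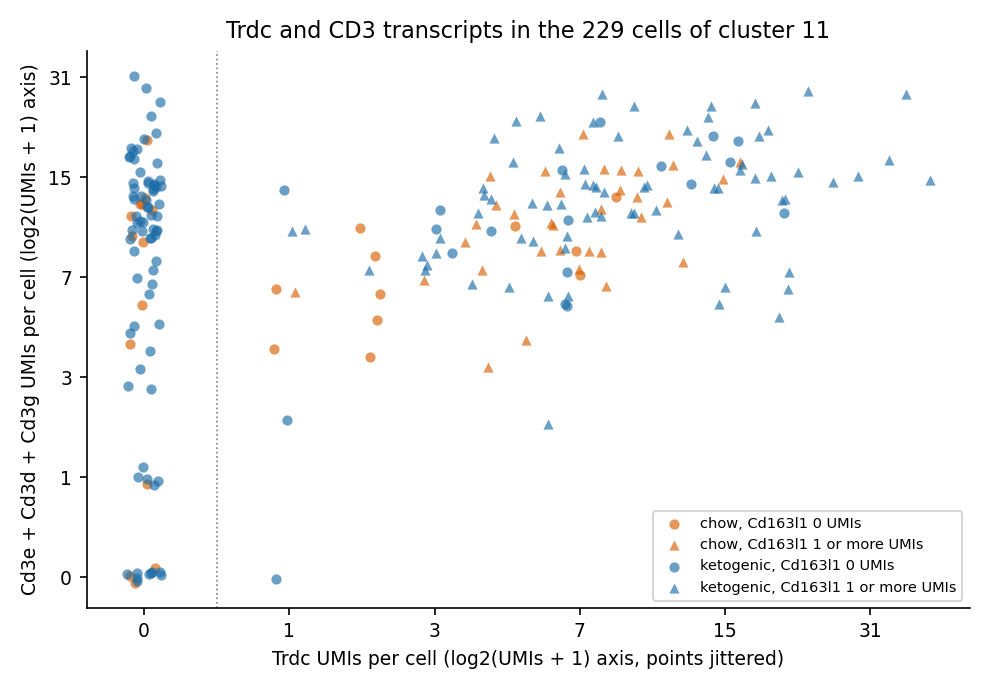
Each point is 1 cell of cluster 11, with its Trdc UMIs on the x axis and its Cd3e, Cd3d and Cd3g UMIs on the y axis (both log2 of UMIs + 1, jittered), coloured by library, with triangles for cells that hold Cd163l1. The 88 Trdc-negative cells lie at 0 on the x axis, and 18 of them have 0 or 1 CD3 UMI while 1 of 141 Trdc-positive cells does.

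The cells carried the markers given for the cluster. Cxcr6, a chemokine receptor of tissue-resident lymphocytes (chr9:123806475-123811760, plus strand), had 300 UMIs in 78 of the 88 cells, at 591 CPM under chow and 839.7 under the ketogenic diet. Pxdc1 (chr13:34627834-34653486, minus strand) had 192 UMIs in 69 cells, at 512 and 516 CPM. Il17re, a receptor subunit for IL-17C (chr6:113458484-113470758, plus strand), had 44 UMIs in 30 cells, at 177 and 109 CPM, against 0.691 CPM over all other clusters. All 4 given markers (these 3 and Trac) were at least 2-fold higher than in the other clusters pooled, where 7.19% of 2503 genes were that much higher. By cluster this did not hold for Trac, which stood at 618 CPM in the Trdc-negative cells and at 845 in cluster 2, 567 in cluster 7 and 461.5 in cluster 4. Nor did it hold for Cxcr6, which was less than 2-fold higher than in cluster 0, where 60.5% of cells held it. Of the 147 Il17re UMIs in all clustered cells, 29.9% came from the 88 cells and 48.3% from the Trdc-positive cells.

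Of 30 genes of an IL-17 program list, 21 had at least 20 UMIs in the Trdc-negative cells. Of these 21, 20 were at least 2-fold higher than in the other clusters, beside 7.19% of all 2503 genes. Genes of the list that are low in the Trdc-negative cells did not enter that count, among them Cd163l1 and Sox13 with 0 UMIs, Il17a with 5, Il23r with 14 and Il17f with 17, so it is largely set by the filter. The 20 highest log2 ratios included those of Il22 at 3.88, Pxdc1 at 3.84, Igfbp7 at 3.49 and Actn2 at 3.35, followed by F2r, Ly6g5b, Tcrg-C2, Icos, Il17re, Prr29, Cxcr6, Tmem176a, Ramp1, Il18r1, 5430421N21Rik, Tcrg-C1, Tmem176b, Rasl11a and Kcnk1. The genes with levels most like those of Il17re were Ly6g5b (Pearson's r = 0.988), Actn2 (0.974), 5430421N21Rik (0.941), Ndufs5 (0.928) and F2r (0.908), ranked among 1004 genes over 14 sets of cells, the clusters with cluster 11 split by Trdc. Those 14 points come from the same 2 libraries, so these are descriptions.

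Promoters of 4 genes of the program are shown because the letters AGGTCA, a core that many nuclear receptors bind, occur on either strand in 3 of them and in neither strand of the other. Each run holds 250 bases before the annotated start and 50 after it from RefSeq on GRCm38.p6, in the direction of transcription, with capitals marking AGGTCA or its reverse complement TGACCT. Il23r, a chain of the IL-23 receptor (chr6:67491806-67492105, minus strand), holds the motif from 66 bases before the start and its reverse complement from 229 before. Il17f, a cytokine (chr1:20784221-20784520, minus strand), holds it from 58 bases before, Ccr6, a chemokine receptor (chr17:8235793-8236092, plus strand), holds the reverse complement from 44 before, and Il17re (chr6:113458521-113458820, plus strand) holds none.
Il23r: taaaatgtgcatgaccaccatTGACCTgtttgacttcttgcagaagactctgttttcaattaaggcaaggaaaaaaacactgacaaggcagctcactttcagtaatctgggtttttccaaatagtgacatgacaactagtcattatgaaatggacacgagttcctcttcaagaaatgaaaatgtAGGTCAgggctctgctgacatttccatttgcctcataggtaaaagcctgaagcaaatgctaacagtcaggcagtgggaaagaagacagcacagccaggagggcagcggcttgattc
Il17f: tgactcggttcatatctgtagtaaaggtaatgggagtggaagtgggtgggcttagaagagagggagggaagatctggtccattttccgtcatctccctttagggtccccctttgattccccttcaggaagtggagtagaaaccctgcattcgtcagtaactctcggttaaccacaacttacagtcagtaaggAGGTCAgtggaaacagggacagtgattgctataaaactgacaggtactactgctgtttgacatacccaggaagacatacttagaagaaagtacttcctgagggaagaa
Ccr6: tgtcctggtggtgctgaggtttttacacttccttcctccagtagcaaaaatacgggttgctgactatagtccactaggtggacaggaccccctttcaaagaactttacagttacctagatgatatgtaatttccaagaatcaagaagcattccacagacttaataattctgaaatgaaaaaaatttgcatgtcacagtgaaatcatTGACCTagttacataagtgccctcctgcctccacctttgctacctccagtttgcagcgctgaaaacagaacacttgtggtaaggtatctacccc
Il17re: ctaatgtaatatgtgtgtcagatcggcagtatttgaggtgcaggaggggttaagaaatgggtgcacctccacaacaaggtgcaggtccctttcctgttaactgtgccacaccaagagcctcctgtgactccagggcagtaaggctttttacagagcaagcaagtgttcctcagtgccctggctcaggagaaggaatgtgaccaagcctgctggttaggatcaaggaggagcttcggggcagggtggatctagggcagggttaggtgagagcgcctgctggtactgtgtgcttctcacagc
Of the 30 genes of the IL-17 program, 23 had a promoter in the table. The first promoter listed held the motif for 6 of these (26.1%), against 16.0% of all 27025 genes counted the same way. The 6 genes are 5830411N06Rik, Actn2, Ccr6, Il17a, Il17f and Il23r. A match is only a run of letters, and binding was not measured.

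Transcripts of the alpha beta receptor were widespread among the Trdc-negative cells. Trac was found in 70.5% [59.8–79.7] of them, at 512 CPM in chow and 634.5 in ketogenic cells, and in 19.9% [13.6–27.4] of the Trdc-positive cells, at 71.9 and 63.8 CPM. After thinning every cell to 1000 UMIs the shares were 41.2% and 6.86%. Cluster 2, whose cells carry Cd4, Cd8b1 and Cd28, had Trac in 83.2% of cells, and cluster 0, which is marked by Gata3 and Il1rl1, in 6.89%. In cluster 6, whose cells carry an antigen-presenting and not a T cell program, the share was 10.4% at a median depth of 8822 UMIs, and 1.75% after thinning. The beta constant segments Trbc1 and Trbc2 separated the cells less, since they occurred in 87.5% of the Trdc-negative cells, 88.7% of the Trdc-positive cells and 79.7% of cluster 0.

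Gamma chain transcripts were also present without Trdc. A gamma constant segment was found in 68.2% of the Trdc-negative cells, 98.6% of the Trdc-positive cells, 56.8% of cluster 0 and 9.84% of cluster 2. Tcrg-C1 stood at 473 CPM under chow and 336 under the ketogenic diet, against 1071 and 1181 in the Trdc-positive cells (log2 ratio -1.66), and Tcrg-C4 and Tcrg-C2 had log2 ratios of -1.08 and -0.57. The delta variable segment Trdv4 had 0 UMIs, against 73 UMIs in 49 Trdc-positive cells, which is at least 18.1-fold lower with 3 counts over the group as the floor. Tcrg-V6, the gamma variable segment of a known IL-17-type subset, had 0 UMIs against 11 in 9 Trdc-positive cells, and Trgv2 had 11 UMIs in 9 Trdc-negative cells. Of 28 gamma and delta gene names, 16 were in the files, 7 were detected in the 88 cells and 9 were at 0.

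Sorted by any UMI of each chain list, 23 of the 88 cells (26.1% [17.3–36.6]) held alpha beta transcripts without gamma delta ones, 57 (64.8% [53.9–74.7]) held both, 4 (4.55% [1.25–11.2]) gamma delta ones only and 4 neither. These classes move with depth and with the beta transcripts that innate cells share. After thinning, 44.2% were alpha beta only and 32.4% both. With the alpha chain alone standing for the alpha beta receptor, the counts were 18 alpha only, 46 both, 15 gamma delta only, 4 with CD3 alone and 5 with none of them.

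The receptor segments of the best known innate-like alpha beta cells were rare. Traj18, which iNKT cells use, and Trav1 and Traj33, which MAIT cells use, had 0 UMIs. Trav11, also a listed MAIT or iNKT gene, had 4 UMIs in 2 Trdc-negative cells and 1 UMI in the Trdc-positive cells. Its 4 UMIs were the most of any alpha variable segment in the 88 cells. Few alpha variable segments were captured at all, with 7 others (Trav6-1, Trav7-1, Trav13n-1, Trav16n, Trav7-4, Trav13-1 and Trav7-6) in 1 cell each, so 0 UMIs of a segment does not show its absence. Zbtb16, which encodes the factor PLZF of innate-like T cells, had 8 UMIs in 7 cells, at 39.4 CPM under chow and 18.7 under the ketogenic diet, against 0 and 27.7 in the Trdc-positive cells. Of 14 MAIT or iNKT genes, 10 were detected in the 88 cells.

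Against the Trdc-positive cells of the same cluster, 53 of 4646 genes (1.14%) were at least 2-fold higher in the Trdc-negative cells and 40 (0.861%) at least 2-fold lower, with a median log2 ratio of 0.03. Within the ketogenic library alone 67 were higher and 40 lower, 48 and 27 of them shared with these, and within chow alone, with 14 cells, 44 and 80, of which 8 and 12 were shared. The ratios have 20 CPM added to both sides and weigh the Trdc-positive cells to the same mix of libraries. Trac was higher by 2.91, Cd28 by 2.35, Lck by 1.76 and Cd40lg by 1.61 on the log2 scale. Cd28, a co-stimulatory receptor of T cells, had 55 UMIs in 27 cells (78.8 CPM under chow and 159 under the ketogenic diet) against 6 UMIs in 6 Trdc-positive cells (7.19 and 13.9 CPM). Lck, the kinase that starts receptor signalling, stood at 78.8 and 246 CPM against 28.8 and 55.4. Cd40lg, the CD40 ligand of helper T cells, stood at 78.8 and 118 CPM against 14.4 and 25.0. In both libraries each of these 3 genes was higher in the Trdc-negative cells.

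Cd163l1 and Trdv4 had the lowest ratios. Cd163l1 (chr7:140218267-140231145, plus strand) had 0 UMIs against 517 UMIs in 111 Trdc-positive cells (798.0 CPM under chow and 1126 under the ketogenic diet), at least 128-fold lower. Sox13, a transcription factor of that lineage, had 0 UMIs against 20 in 20 cells, at least 4.97-fold lower (log2 -1.46 with 20 CPM added). Blk, a Src family kinase, stood at 78.8 CPM under chow and 43.5 under the ketogenic diet against 201 and 219 (log2 -1.79). Pdcd1, which encodes the inhibitory receptor PD-1, had 6 UMIs against 88 (0 and 18.7 CPM against 137 and 191, log2 -2.5). Rln3 (-1.98), Sdf2l1 (-1.72), Hspa1b (-1.65) and Flrt2 (-1.46) complete the 10 lowest with Trdv4 and Tcrg-C1. The split by Trdc used a receptor gene of the same lineage, so these values describe the split and do not support it.

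Over 29 genes of the IL-17 program the median log2 ratio was -0.30, beside 0.03 over all genes. In the Trdc-negative cells 2 of them were at least 2-fold higher (Il22 and Ccr6), beside 1.14% of all genes, and 5 lower (Cd163l1, Sox13, Blk, Il17a and 5830411N06Rik), beside 0.861%. Genes entered with at least 20 UMIs over both sets, and Il22, Ccr6, Cd163l1 and Sox13 passed through the set where they are high, so these counts are partly set by the filter. Il17re (log2 -0.30), Cxcr6 (-0.61), Il23r (-0.37), Il1r1 (-0.61) and Pxdc1 (0.90) were within 2-fold. Il17a, the cytokine that names the program, had 5 UMIs in 2 Trdc-negative cells (0 CPM under chow and 15.6 under the ketogenic diet), against 42 UMIs in 17 Trdc-positive cells (158 and 55.4 CPM). Its close relative Il17f had 17 UMIs in 4 Trdc-negative cells, at 19.7 and 49.8 CPM against 7.19 and 16.6. Of the 60 Il17a UMIs in all clustered cells, 5 lay in the Trdc-negative and 42 in the Trdc-positive cells, while 37.0% of the Il17f UMIs lay in the Trdc-negative cells. Of those 17 Il17f UMIs, 12 came from 1 ketogenic cell of 9389 UMIs that also held 125 Cd74 UMIs, and whether it is a captured pair was not tested.

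Il22 (chr10:118204942-118210047, plus strand), a cytokine that acts on epithelia, had the highest ratio and came from few cells. Its 122 UMIs lay in 6 cells, with 17 and 21 UMIs in 2 chow cells and 33, 35, 15 and 1 in 4 ketogenic cells, and the Trdc-positive cells had 0 UMIs, so it was at least 54.6-fold higher. These UMIs were 41.9% of the 291 in all clustered cells. The other genes among the 10 highest were Trac, Nrgn (2.80), Igfbp7 (2.40), Cd28, Nccrp1 (2.12, all 25 UMIs in 1 cell), Rrad (2.09), Cd81 (2.08), Ccdc184 (2.03) and Rasl11a (2.03, but -0.44 within chow). Ccr6 (28 UMIs in 17 cells), Kit (22 in 14) and Cd4 (17 in 8) had log2 ratios of 1.94, 1.56 and 1.15.

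**Figure D2:**
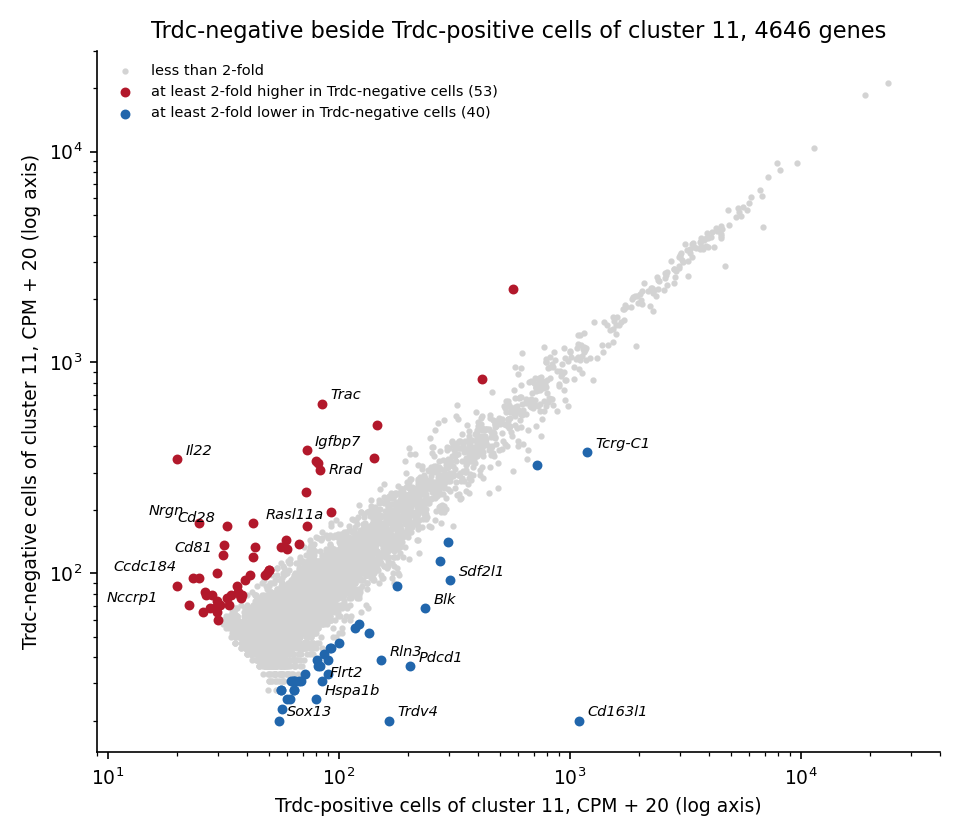
Each point is 1 gene, with its level in the Trdc-positive cells on the x axis and in the Trdc-negative cells on the y axis (CPM + 20, log axes), red where at least 2-fold higher and blue where at least 2-fold lower in the Trdc-negative cells. Il22, Trac and Cd28 lie above the diagonal and Cd163l1, Trdv4 and Pdcd1 below it.

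The 88 cells were not alike in their CD3 transcripts. Counted over Cd3e, Cd3d and Cd3g, 12 cells had 0 UMIs, 6 had 1, none had 2, 3 had 3 and 67 had 4 or more, with a highest count of 31. A split between 1 and 2 was chosen after this gap was seen, and it gives 18 cells (20.5% [12.6–30.4]) with 0 or 1 CD3 UMI, here CD3-low, and 70 others with a median of 12, here CD3-high. The median depth of the CD3-low cells was 3594 UMIs and that of the CD3-high cells 3972.5. The CD3-low cells numbered 4 under chow and 14 under the ketogenic diet. They are a range of the count and not a named type, and what follows describes them with no test.

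The CD3-low cells had few transcripts of the alpha beta receptor and of the receptor's signalling chain, while gamma chain transcripts were present in them. Trac had 4 UMIs in 4 of the 18 CD3-low cells and 226 UMIs in 58 of the 70 CD3-high cells (52.8 and 762 CPM), or 6.49% and 50.1% of cells after thinning. Trbc2 stood at 145 CPM in the CD3-low and 1420 in the CD3-high cells, Lck at 26.4 and 273, Cd28 at 26.4 and 179, and Lat, an adaptor of the receptor, at 158 and 674.5. Cd40lg had 0 UMIs in the CD3-low cells and 142 CPM in the CD3-high cells. Of 12 genes of receptor signalling, 6 were at least 2-fold lower in the CD3-low cells (Lck, Lat, Zap70, Cd2, Cd28 and Skap1), beside 5.92% of all genes, and none higher, with a median log2 ratio of -1.42. Entry took at least 20 UMIs over both sets of cells. Cd2 (90 of 91 UMIs) and Cd28 (53 of 55) passed through the CD3-high cells, so this count is partly set by the filter. The split used CD3 genes, which belong to the same receptor, so low receptor and signalling genes describe the split and do not support it. Over all 2500 genes tested, without those 3 CD3 genes, 163 (6.52%) were at least 2-fold higher and 148 (5.92%) at least 2-fold lower, with a median log2 ratio of 0.03.

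Transcripts known from group 3 innate lymphoid cells lay mostly in the CD3-low cells. Kit, the stem cell factor receptor, was found in 11 of the 18 CD3-low and 3 of the 70 CD3-high cells, at 224 and 16.9 CPM, a ratio of 13.3 [4.71–46.1]. Il22 had 121 UMIs in 5 CD3-low cells and 1 UMI in 1 CD3-high cell. Cd4, which lymphoid tissue inducer cells also carry, was found in 7 CD3-low cells and 1 CD3-high cell (211 and 3.37 CPM, ratio 62.6 [9.72–2625]). Ccr6 stood at 237.5 and 33.7 CPM (7.04 [3.08–17.1]) and Lta, the cytokine lymphotoxin alpha, at 185 and 27.0. At least 1 UMI of Kit, Il22, Cd4 or Ccr6 was found in 15 of 18 CD3-low cells and 9 of 70 CD3-high cells, in 7 of the 141 Trdc-positive cells, and in 28.7% of cluster 0, 27.3% of cluster 2 and 28.6% of cluster 6, so these transcripts also occur in other clusters. After thinning, the shares were 61.6% of CD3-low, 4.13% of CD3-high and 1.48% of Trdc-positive cells. In clusters 0, 2 and 6 they were then 11.65%, 11.35% and 3.77%.

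**Figure D3:**
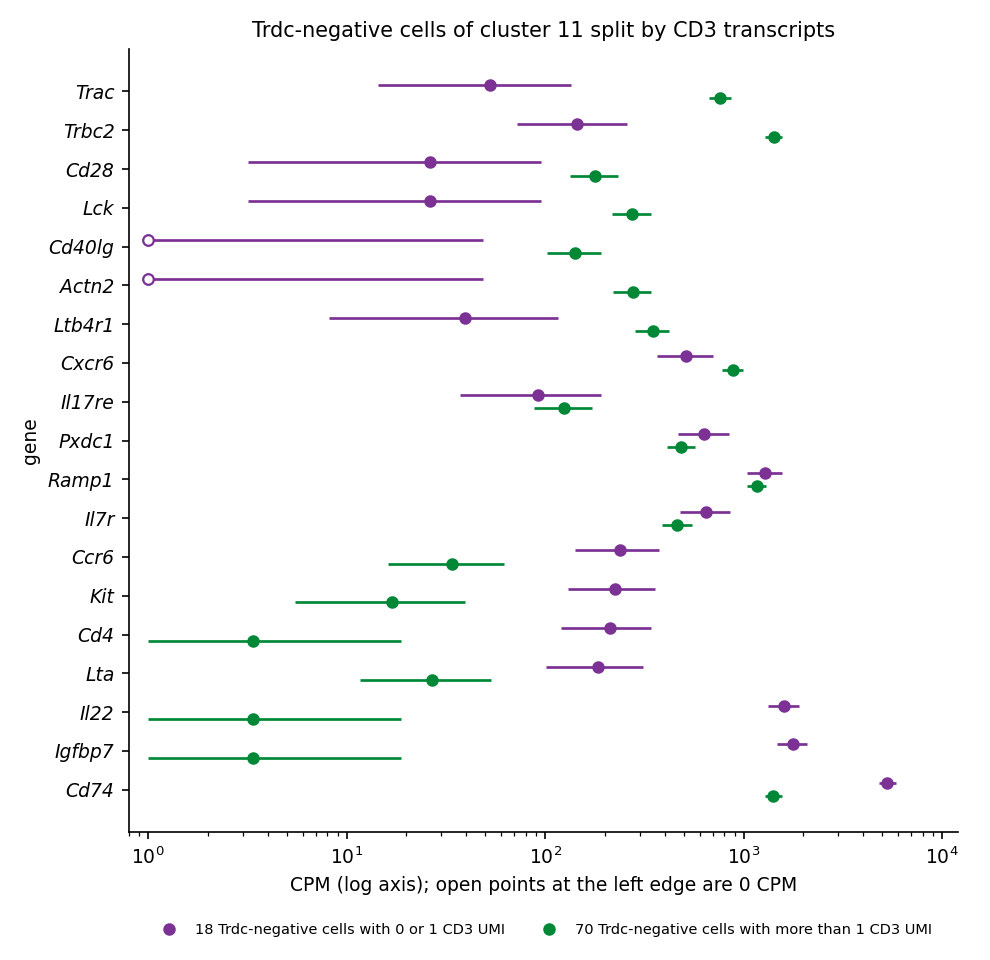
Summed CPM of named genes in the 18 CD3-low and the 70 CD3-high cells, on a log axis, with 95% Poisson intervals for counting error cut at the left edge. Kit, Ccr6, Cd4 and Il22 stand higher in the CD3-low cells, and Trac, Trbc2, Cd28 and Lck in the CD3-high cells, while the intervals of Il17re, Pxdc1 and Ramp1 overlap. Open points at the edge are 0 CPM.

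Other parts of the group 3 list were split or weak. Of 5 genes of that list tested, 4 were at least 2-fold higher in the CD3-low cells (Kit, Il22 and Lta among them), beside 6.52% of all genes, with a median log2 ratio of 2.12. Genes entered with at least 20 UMIs over the 88 cells, and Il22 (121 of 122 UMIs in CD3-low cells), Kit (17 of 22) and Lta (14 of 22) passed largely through the CD3-low cells, so this count is partly set by the filter. The summed list stood at 2810 CPM against 418, and without Il22, which came from 5 of the 18 cells, at 1214 against 415. Tnfsf11, which encodes RANKL, stood at 462 and 223 CPM, and Cxcr5, a homing receptor, at 66.0 and 0 CPM. Il17f had 224 CPM in the CD3-low cells from 17 UMIs in 4 cells, of which 1 cell gave 70.6%, and 0 UMIs in the CD3-high cells. Il23r was level, at 39.6 and 37.1 CPM, and Cd300lf had 0 UMIs in all 88 cells. Of 13 innate-like transcription factors tested, 4 were at least 2-fold higher in the CD3-low cells, among them Tcf7 (303 and 84.3 CPM), Tox (171.5 and 30.4 CPM) and Bhlhe40, beside 6.52% of all genes. The 2 that were lower were Ikzf3 (log2 -3.11) and Bcl11b (-2.30), beside 5.92%, and the median was -0.14.

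The IL-17 program was divided between the 2 sets of cells. Of 21 of its genes tested, 4 were at least 2-fold higher in the CD3-low cells (Il22, Ccr6 and Kcnk1 among them), beside 6.52% of all genes, and 5 lower (Ltb4r1, Aqp3, Actn2, Icos and Lmo4), beside 5.92%, with a median of 0.13. The filter bears on these counts too, since Il22 passed through the CD3-low and Actn2 through the CD3-high cells. Pxdc1 stood at 633 CPM in the CD3-low and 486 in the CD3-high cells, Ramp1, part of a neuropeptide receptor, at 1280 and 1164, Il17re at 92.3 and 125, Il7r at 646 and 462 and Cxcr6 at 514.5 and 880.3. Actn2 and Blk had 0 UMIs in the CD3-low cells and 277 and 60.7 CPM in the CD3-high cells. Gamma chain transcripts were split as well. Tcrg-C1 stood at 831 CPM in the CD3-low and 233 in the CD3-high cells (log2 1.75), while Tcrg-C2 was lower in the CD3-low cells (log2 -1.61). The gamma and delta list summed to 989 and 651 CPM, with up to 19 UMIs in 1 CD3-low cell. A gamma constant segment was found in 12 of 18 CD3-low and 48 of 70 CD3-high cells.

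Several genes at the top of the comparison with the Trdc-positive cells came from the CD3-low cells. Igfbp7 stood at 1768 CPM in the CD3-low and 3.37 in the CD3-high cells, and Nrgn at 752 and 0. When only the 70 CD3-high cells were set against the Trdc-positive cells, the log2 ratio of Nrgn was -0.31, of Rasl11a -0.21 and of Il22 0.22. That of Igfbp7 was -1.65, but 1 Trdc-positive cell, with 0 CD3 UMIs, held all 22 Igfbp7 UMIs of the Trdc-positive cells. With that set, 38 genes were higher and 51 lower, 27 and 34 of them shared with the whole set.

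MHC class II transcripts of the Trdc-negative cells came in large part from 3 cells. Cd74, the invariant chain, stood at 1871 CPM under chow and 2252 under the ketogenic diet, against 1107 and 460.2 in the Trdc-positive cells (log2 1.97), and H2-Ab1 had a log2 ratio of 1.01. Of 6 MHC class II genes tested, 2 were at least 2-fold higher, beside 1.14% of all genes, with a median of 0.88. The list summed to 4126 CPM in the 88 cells against 1753 in the Trdc-positive cells, and to 8786 in the CD3-low and 2934 in the CD3-high cells. Of these cells, 3 held 125, 146 and 256 Cd74 UMIs, and without them the sums were 1846 CPM for the Trdc-negative cells, close to the 1753 of the Trdc-positive cells, and 3842 and 1418 for the CD3-low and CD3-high cells. Dendritic cell markers summed to 24.2 CPM, with 5 of 8 detected, and the part of captured pairs or of free RNA in the Cd74 level was not tested.

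Gata3, which group 2 innate lymphoid cells and T cells share, stood at 115.5 CPM, but Il1rl1, the IL-33 receptor, had 4 UMIs (10.7 CPM) and Areg 53.7 CPM, against 673, 611 and 1349.5 CPM for these genes in cluster 0. Of 12 natural killer or group 1 genes 10 were detected, and their sum was 489 CPM against 322 in the Trdc-positive cells, with none of 5 genes tested 2-fold apart. Nkg7, a granule protein, gave 119 UMIs of that sum in 45 cells (319.6 CPM, against 4143 in cluster 1), while Eomes and Prf1 were at 0, Ncr1 had 4 UMIs and Klrb1c 5. Foxp3, the factor of regulatory T cells, and Gzmk were at 0, Cd8a had 2 UMIs and Cd8b1 had 5. Among the CD4 T list 3 of 5 genes tested were at least 2-fold higher than in the Trdc-positive cells (Cd4, Cd28 and Cd40lg), beside 1.14% of all genes, with a median of 1.15. Cd4, with 17 UMIs against 4, and Cd28, with 55 against 6, passed the filter through the Trdc-negative cells. Cd40lg, found in 25 CD3-high and 8 Trdc-positive cells, did so largely too, so this count is partly set by the filter. Of the 17 Cd4 UMIs, 16 lay in CD3-low cells. Within the Trdc-negative cells, 3 of 4 genes of that list were lower in the CD3-low cells, beside 5.92% of all genes. The median was -1.56, or -1.43 with a gene at 0 set at its bound. Cd40lg had 0 UMIs in the CD3-low cells and Cd28 lay in 2 of the 18, so both passed the filter through the CD3-high cells. Cd4, with 17 UMIs, did not enter, though it was higher in the CD3-low cells, so this count is partly set by the filter.

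**Figure D4:**
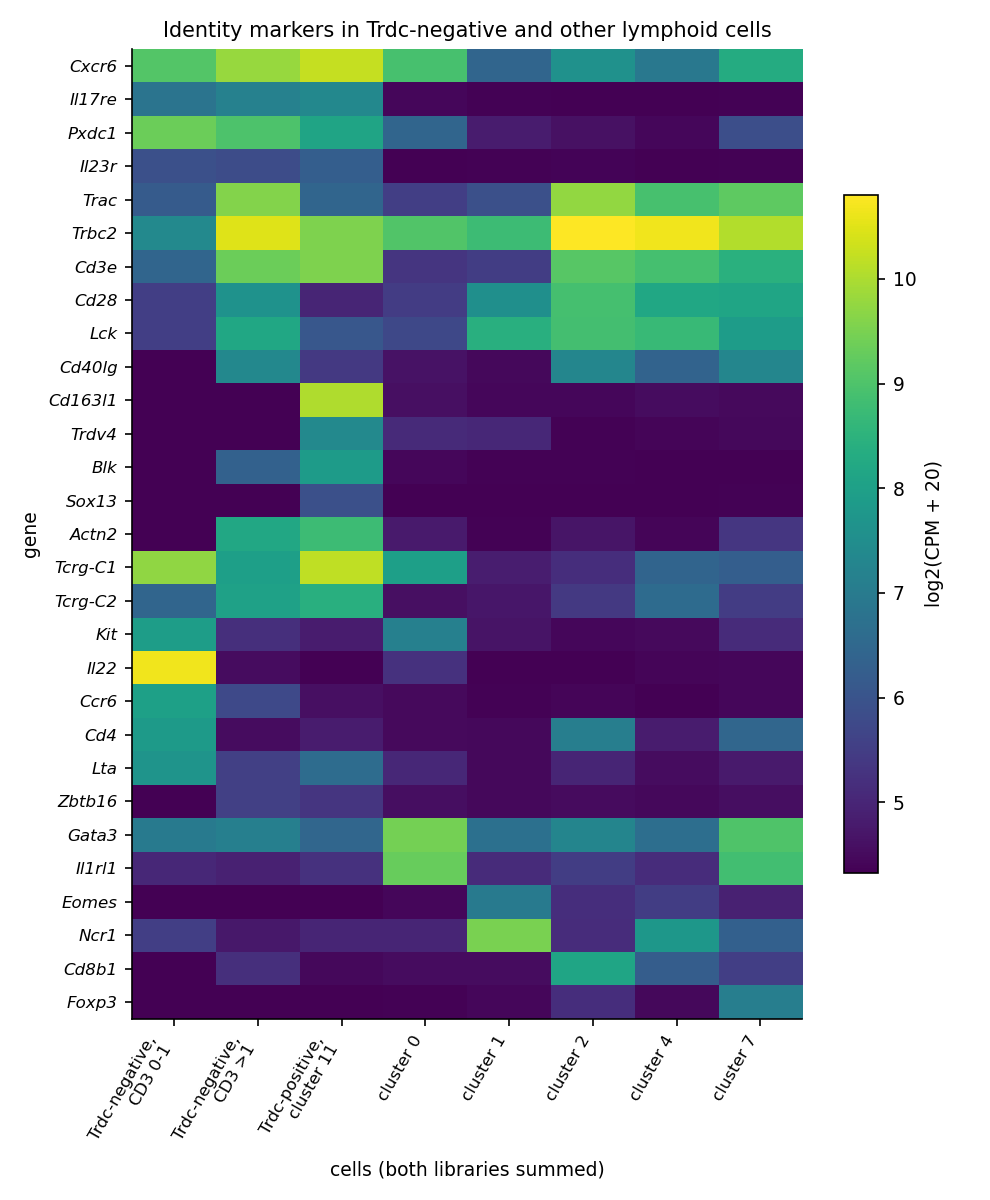
Colours give log2 of CPM + 20 for 29 defining genes (rows) in the CD3-low and CD3-high Trdc-negative cells, the Trdc-positive cells and 5 other clusters (columns), both libraries summed. Trac stands at 762 CPM in the CD3-high cells beside 845 in cluster 2, Cd163l1 is bright in the Trdc-positive column, and Kit, Il22, Ccr6 and Cd4 are brightest in the CD3-low cells.

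Lists outside the identity genes are given beside the 1.14% of all genes that were 2-fold higher than in the Trdc-positive cells and the 0.861% that were lower, and shares near these are no result about a list. None of 16 cytokine receptors and none of 8 genes of lipid and ketone use were 2-fold apart, with medians of -0.16 and 0.07, and 1 of 16 innate-like transcription factors (Sox13) was lower. In the immediate early list, Atf3 was higher (1.24) and Hspa1b lower among 15 genes. Of 5 cell cycle genes, Stmn1 and Mcm5 were higher, and Klrb1b, a killer cell receptor, was the one of 11 cytotoxic and killer receptor genes that was higher (1.24). Markers of B and plasma cells summed to 1507 CPM in the Trdc-negative and 1603 in the Trdc-positive cells, and Igkc, an antibody chain, was found in 88 of 88 cells and at like levels in both sets (1142 CPM under chow and 1026 under the ketogenic diet, against 1114 and 1053.5).

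The Trdc-negative cells made up 0.314% [0.172–0.526] of the clustered chow cells and 1.33% [1.05–1.67] of the clustered ketogenic cells, and the ratio of these shares was 4.24 [2.37–8.13]. With only clusters 2, 4, 7 and 11 as the denominator the ratio was 2.09. For the Trdc-positive cells it was 1.71 [1.19–2.5]. As a share of cluster 11, the Trdc-negative cells made up 23.7% under chow and 43.5% under the ketogenic diet (ratio 1.83 [1.03–3.52]), or 35.6% and 51.2% after thinning (1.44 [0.885–2.44]). The CD3-high cells made up 0.224% and 1.08% of clustered cells (4.81 [2.44–10.5]) and the CD3-low cells 0.0897% and 0.252% (2.81 [0.882–11.7]), and the difference between these 2 ratios was not tested. Differences between mice and between diets cannot be told apart with 1 library each.

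Within the Trdc-negative cells, 65 of 1004 genes (6.47%) were at least 2-fold higher and 21 (2.09%) at least 2-fold lower under the ketogenic diet, with a median log2 ratio of 0.05. The counting interval left out a ratio of 1 for 41 of the 65 and for 21 of the 21. These genes were picked as 2-fold apart by the same counts, so the intervals are no separate check. The lower genes have the larger chow counts, so the 2 shares cannot be compared. Only 14 cells and 50770 UMIs stood on the chow side. Nfkbia, an inhibitor of NF-κB, stood at 197 CPM under chow and 787 under the ketogenic diet (ratio 4.0 [2.14–8.43]). Tuba1b, a tubulin, stood at 59.1 and 323 CPM (5.47 [1.82–27.0]), Ly6a at 19.7 and 177 (9.0 [1.55–362]) and 4930523C07Rik at 19.7 and 155.5 (7.90 [1.35–318]). Rasl11a had 0 UMIs under chow and 57 in 13 ketogenic cells, at least 3.0-fold higher.

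Il22 had the lowest ratio, at 748.5 CPM under chow and 261 under the ketogenic diet (0.349 [0.235–0.526]), from 2 of 14 and 4 of 74 cells. Adgre5 (log2 -1.50), Ctla2a (-1.43), Wnk1 (-1.42) and Pdcd4 (-1.37) followed. Among 15 genes of the IL-17 program, Il22 was the one that was 2-fold apart, beside 2.09% of all genes that were lower, and the median was -0.23. Of 9 receptor signalling genes 2 were higher (Lck by 1.48 and Nr4a1 by 1.17 on the log2 scale), and of 9 immediate early genes 3 were higher (Junb by 1.23, Btg2 by 1.25 and Nfkbia), beside 6.47% of all genes, with medians of 0.70 and 0.39.

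Macrophage transcripts moved with the diets in these cells. The macrophage list summed to 1004.5 CPM in the chow and 199 in the ketogenic cells, with 2 to 6 UMIs per cell (median 3.5) under chow and 0 to 6 (median 1) under the ketogenic diet, against 26226 CPM in cluster 3, which carries the macrophage program. Lyz2 stood at 374 and 71.5 CPM and Retnla at 453 and 74.6, and in the Trdc-positive cells at 525 and 88.7 and at 453 and 38.8. Without cells of at least 3 macrophage UMIs, which left 3 of 14 chow cells, 115 genes were higher and 45 lower, 25 and 6 of them shared, and the log2 ratio of Il22 was 2.86, since both chow cells with Il22 UMIs were among those left out. The part of these transcripts in the diet differences was not tested, nor whether they came from free RNA or from captured pairs.

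**Figure D5:**
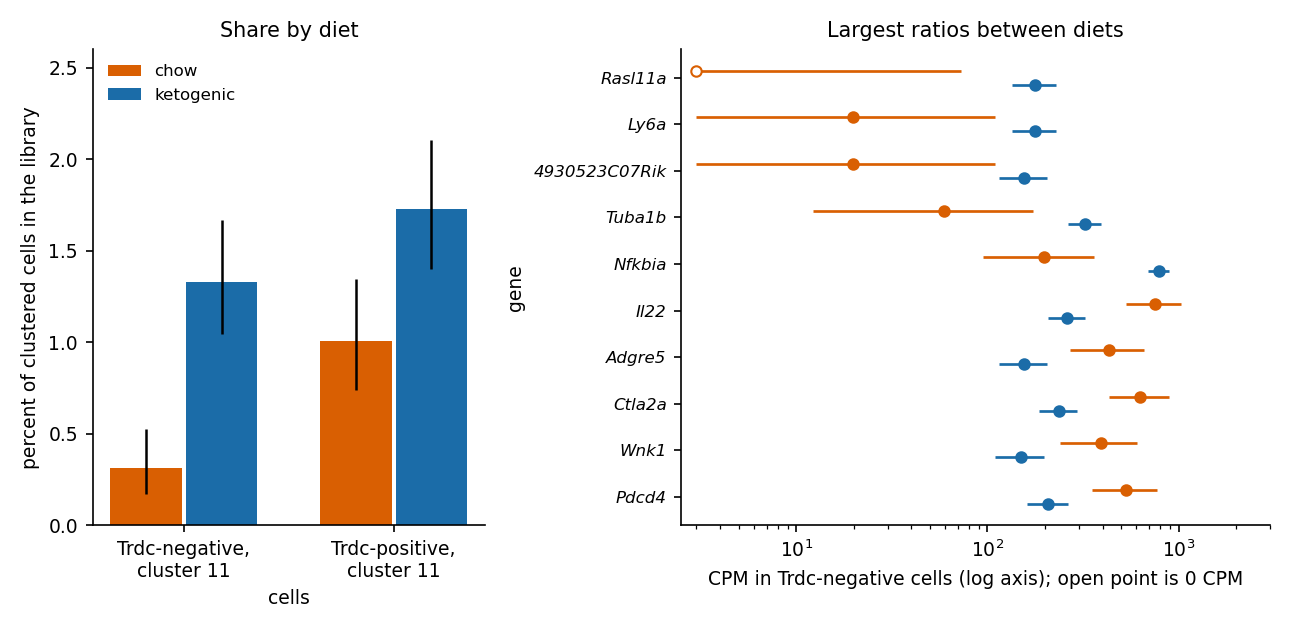
Left, bars give the percent of clustered cells that were Trdc-negative or Trdc-positive cells of cluster 11, with 95% binomial intervals; right, points give the CPM of named genes in the Trdc-negative cells on a log axis, with 95% Poisson intervals cut at the left edge and an open point for 0. The Trdc-negative share was 0.314% and 1.33%, and Nfkbia, Tuba1b and Ly6a stand higher under the ketogenic diet and Il22 and Adgre5 higher under chow.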

How the data were processed

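Per the file headers, the authors' matrices give whole-number UMI counts for each gene in each cell, without normalisation. The submitters' processing notes name Cell Ranger, Seurat and mm10, with no versions or roles. The authors' deposited table gives cluster numbers at resolution 0.5, and cells outside it were left out. Members, gene lists, markers and comparisons were chosen with earlier results of these data known, and the CD3 split, and the alternatives that use it or leave out cells rich in Cd74, after seeing the data. Calculations used Python 3.11.15 with numpy 2.4.6, scipy 1.17.1 and pandas 2.3.3, and plots matplotlib 3.10.9.

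Counts were summed over cells and scaled to CPM. The Trdc-negative cells were set against the Trdc-positive cells, as log2 ratios with 20 CPM added, for genes with at least 20 UMIs, without Trdc and mitochondrial genes. The CD3-low and CD3-high cells, and all other clusters, were compared with the same 20 CPM added. Diets were compared with 0.5 added to each count, for genes with at least 50 UMIs. A gene was counted as higher or lower from 2-fold. Thinned shares are exact expectations at 1000 UMIs per cell. Intervals are exact: binomial for shares of cells, Poisson for summed counts, conditional for ratios. A fold against 0 UMIs uses a floor of 3 counts over the group. Genes were named by rank: the 10 highest and 10 lowest against the Trdc-positive cells, the 20 highest against other clusters, the 5 highest and 5 lowest between diets, the 5 genes most like Il17re, and listed genes with at least 10 UMIs or defining genes at 0. Any other gene was picked with its values in view. The calculations were tested on simulated data. Alternatives varied the minimum counts, the CPM added, the weighting, the library, the thinning, the denominator and the cells used. Gene positions are from GENCODE M21 on GRCm38 and promoters from RefSeq on GRCm38.p6. All 335 genes looked up were matched. Values of 1 further gene of the lists are not reported here.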

Additional observations from a re-analysis of the deposited data

How the results depend on the processing

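Counting error bounds every value here, since each diet has 1 library, 14 chow cells with 50770 UMIs stand against 74 ketogenic cells, and single segments of the receptor genes lie near the limit of detection. The share ratio between diets was 2.09 with clusters 2, 4, 7 and 11 as the denominator. Alpha beta transcripts without gamma delta ones were found in 44.2% of the cells after thinning and 40.9% with at least 2 UMIs required, both kinds in 32.4% and 43.2%, and CD3 transcripts alone in 4.57% after thinning. Against the Trdc-positive cells, 21 genes were higher and 15 lower with a minimum of 50 UMIs, 139 and 121 with 5 CPM added, 21 and 10 with 50 CPM added, and 44 and 80 within chow alone, of which only 8 and 12 were among the 53 and 40 reported. Rasl11a turned to -0.44 within chow. Without the CD3-low cells, which carry these transcripts, Rasl11a was -0.21, Nrgn -0.31 and Igfbp7 -1.65. For Igfbp7, 1 Trdc-positive cell held all 22 UMIs of the Trdc-positive cells. Between diets, 142 genes were higher and 65 lower with a minimum of 30 UMIs, 22 and 5 with a minimum of 100, 115 and 45 without cells of at least 3 macrophage UMIs, and 10 were lower among CD3-high cells. Il22 turned to 2.86 without the cells of at least 3 macrophage UMIs, since both chow cells with Il22 were among the 11 of 14 left out. Of the remaining values of the comparisons 31 stayed within the spread or within 1.5 times, and of single genes and sums 242 kept their side of 2-fold, 13 lost it and 3 moved. No paired analysis was possible because each diet has 1 library.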

Other observations

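One Trdc-positive cell resembled the CD3-low Trdc-negative cells in its transcripts. It came from the ketogenic library, held 5276 UMIs with 1 UMI of Trdc and 0 of CD3, Cd163l1 and Trac, and had all 22 Igfbp7 UMIs of the Trdc-positive cells. It also had 9 Rasl11a, 9 Pxdc1, 2 Nrgn, 2 Cd4, 1 Kit and 1 Ccr6 UMIs. It was picked out once these values were known.

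Il22 occurred outside cluster 11 in few cells as well. Cluster 0, marked by Gata3 and Il1rl1, held 119 Il22 UMIs in 7 of 2164 cells, with up to 70 in 1 cell, and cluster 10 held 33 in 2 of 296 cells. Among cells that the deposited table leaves out, 79 from chow and 52 from the ketogenic diet had 0 Trdc UMIs, and Il17re and Il22 had 0 UMIs in them.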
